A study of Mus musculus with 40 samples.

Results

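The comparison described here sets the mature scar of the mouse heart, 21 days after a heart attack was induced, against the acute infarct at day 3. Its members are 8 of the 40 RNA-seq libraries of the series, defined by their labels. They are the 4 libraries of the injured region at day 21 and the 4 of the injured region at day 3. All came from adult C57BL/6 mice, an inbred strain, after permanent ligation of the left anterior descending (LAD) artery, which supplies the front wall and tip of the heart. The day 21 group held mice A3, A4, A10 and A11, and the day 3 group held mice A4, A5, A7 and A8, values below being given in these orders; mouse A4 of day 21 is not mouse A4 of day 3. Each day thus had its own mice, the days are unpaired, and both groups had the ligation, so that neither is uninjured heart. A second piece of each heart, taken remote from the injury at the same time, gave the libraries used below for the change outside the scar. The question is the net change of the injured tissue between the acute infarct and the mature scar.

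After a coronary artery is closed, heart muscle cells in its territory die, and neutrophils and then monocytes enter to clear the debris. Fibroblasts of the tissue divide, become activated and lay down collagen that keeps the wall from tearing. Later the inflammatory cells and dividing cells decline, and the fibroblasts of the settled scar make proteins known from tendon and cartilage, which order and bind the collagen fibrils.

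Expression was measured as RPKM, the authors' read numbers per gene length and per library size. Changes are given as differences of the group means of log2(RPKM + 1), day 21 minus day 3, with the standard error (SE) and an adjusted p, called under 0.05. The added 1 makes the change of genes near 0 smaller than their ratio would be. Whole reads worked back from the values summed to 19406875 to 23072272 per library at day 21 and to 15367455 to 19406945 at day 3. Pearson's r between libraries, across genes, was 0.972 to 0.989 among the day 21 scars, 0.982 to 0.99 among the day 3 scars and 0.812 to 0.864 between the days. For the scar, the adjusted p rests on the spread between mice of the same day. That spread was pooled over the scar libraries of all days of the series, not taken from days 3 and 21 alone.

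**Figure D1:**
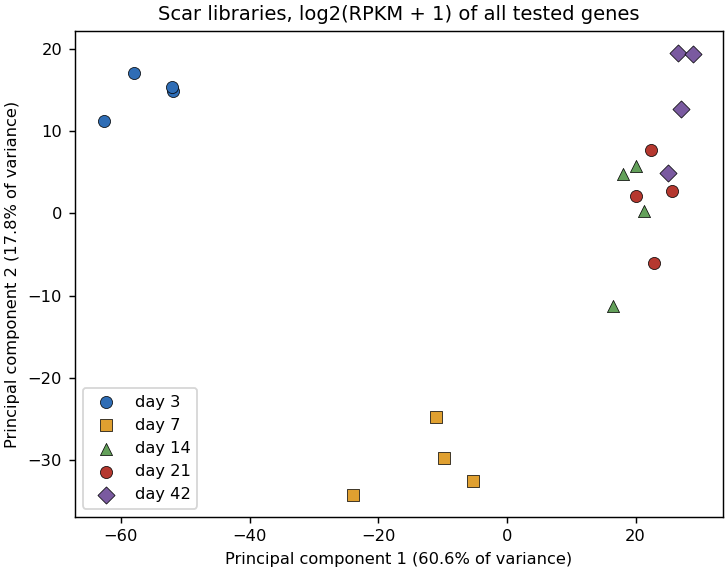
Each point is 1 of the 20 scar libraries (4 mice a day), placed by the first principal component (60.6% of the variance, x axis, arbitrary units) and the second (17.8%, y axis) of log2(RPKM + 1). The 4 day 21 libraries lie on the opposite side of the first component from the 4 day 3 libraries, beside those of days 14 and 42, and the day 7 libraries lie apart on the second.

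The labelled tissue was checked against marker genes. Fibroblast markers were present in every scar: Pdgfra had 28.5, 36, 32.2 and 28.9 RPKM in the day 21 scars, against 16, 16.3, 20.3 and 12.5 RPKM in the day 3 scars. Of the other fibroblast markers checked, Dcn was also higher in every day 21 scar. Postn and Col1a1 overlapped between the days, and Col1a1 was mostly higher at day 3. Both groups also held heart muscle RNA. The cardiac myosin gene Myh6 lay at 351 to 604 RPKM in the day 21 scars and 113 to 375 RPKM in the day 3 scars, while the remote pieces of the same mice had 4167 RPKM or more. The gap to the remote pieces was narrower for 2 other muscle markers. Tnnt2 lay at 184.5 to 248.9 RPKM at day 21 and 82.28 to 147.4 RPKM at day 3, against 521.7 RPKM or more remotely. Actc1 overlapped between the days, at 1068 to 1996 RPKM and 786.3 to 1631 RPKM, against 5163 RPKM or more remotely. Mesothelial Msln, a gene of the heart's outer lining, varied between mice, with 5.31 to 18.8 RPKM at day 21 and 0.457 to 9.21 RPKM at day 3. The lymphocyte markers Cd3e and Cd79a were not analysed here.

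Of 11390 genes tested, 3707 (32.5%) were higher and 3882 (34.1%) lower in the day 21 scar than in the day 3 scar, 66.6% in all. With a log2 change of at least 1 as well, 661 genes (5.8%) were higher and 693 (6.08%) lower. The 4 mice of one day did not overlap the 4 of the other for 6892 genes (60.5%), 3356 higher (29.5%) and 3536 lower (31%). The median change over all genes was -0.01. Counts of listed genes below are to be read against these shares, since a list with similar shares in each direction is like the table as a whole. The lists were chosen with earlier results of these data known, so their counts are not independent of these values. Genes named outside the rules for naming were chosen after their values were seen. In bulk tissue, fewer cells of a type and less RNA per cell cannot be told apart, and this holds for each cell type named below.

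**Figure D2:**
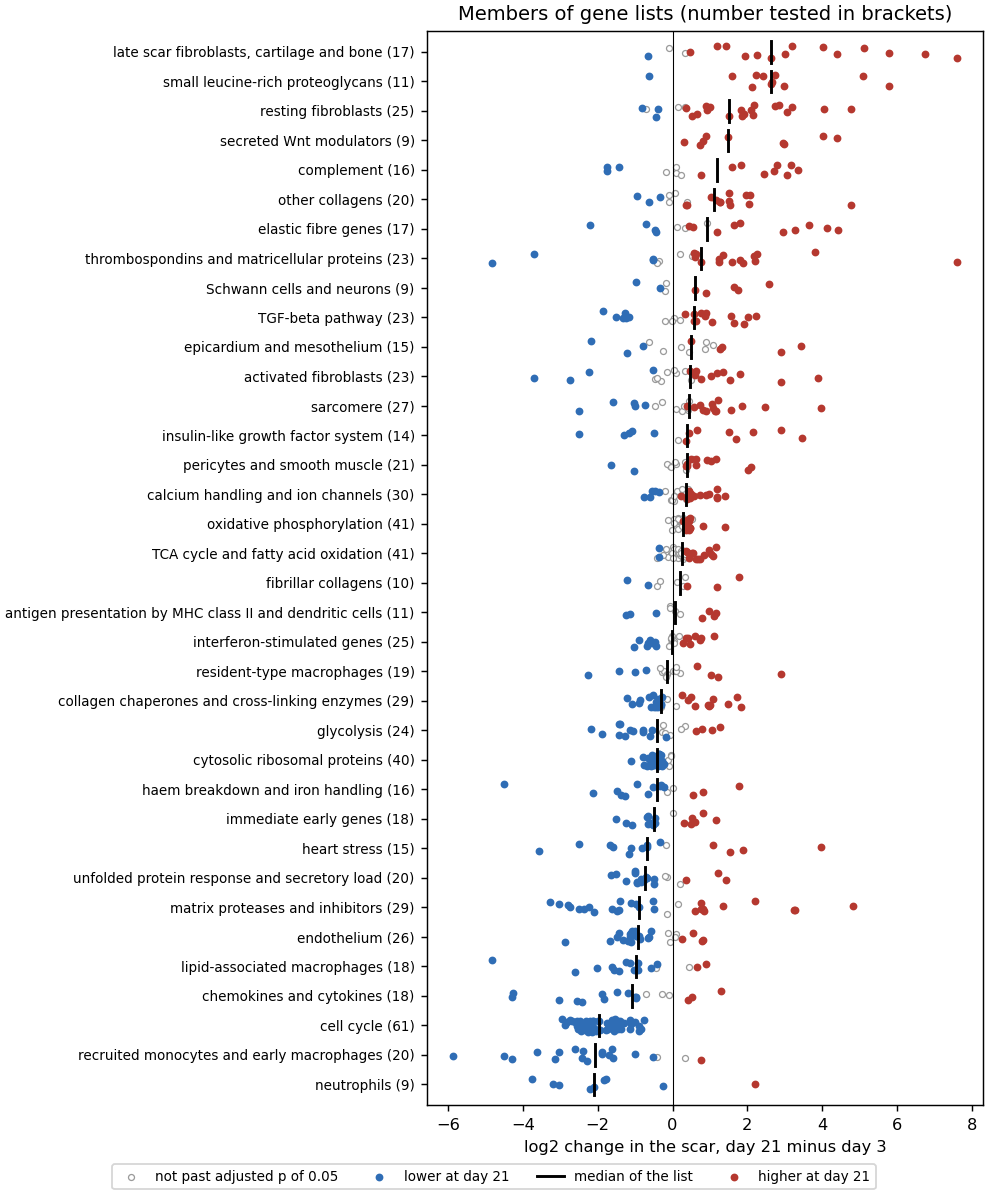
Each point is a gene of a list (rows; number tested in brackets), placed by its log2 change in the scar, day 21 minus day 3 (x axis). Red is higher and blue lower at an adjusted p under 0.05, open points did not pass, and the black bar is the list's median; the cell cycle row lies wholly left of 0.

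Genes of cell division were lower throughout in the mature scar. Of 61 cell cycle genes tested, 61 were lower in the day 21 scar and 0 higher, with a median change of -1.98. The changes ran from -2.96 for Mki67, whose protein Ki-67 marks cycling cells, to -0.76 for Dut, which makes the precursor of dTTP, and 57 were at -1 or below. Mki67 had 3.47, 5.52, 4.31 and 3.26 RPKM in the day 21 scars, against 36.5, 43.4, 38.2 and 36.1 RPKM in the day 3 scars (SE 0.12, adjusted p 3.05e-13). The groups stood far apart and no mouse of either was an exception. Top2a, the topoisomerase that untangles replicated chromosomes, averaged 2.38 ± 0.488 RPKM at day 21 and 23.6 ± 1.84 RPKM at day 3 (SD, n = 4 each), a change of -2.87. Replication genes fell with the genes of mitosis: Mcm5, a subunit of the replicative helicase, averaged 1.74 RPKM at day 21 and 12.3 RPKM at day 3 (-2.28). Ccnd1, a cyclin of the entry into the cycle, fell less, by 0.88 on the log2 scale. With a mean of at least 5 RPKM required in the scar, which tests fewer genes, 23 of the list were lower. A gene could pass the main filter, 1 RPKM in 4 of the 40 libraries, through the libraries where it was high. In the remote region 0 of the 61 genes were called in either direction, with a median change of -0.13. Histone genes that are transcribed during DNA replication, a family looked at after its values were seen, were lower in 36 of 36 cases, with a median of -2.46. Their top member Hist1h1a, a linker histone, had 4.06, 8.71, 6.87 and 6.14 RPKM in the day 21 scars, against 66, 98.4, 108.7 and 79.2 RPKM in the day 3 scars.

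Cell cycle genes are known to share promoter elements: the CHR element (searched as TTTGAA or TTCGAA) and CCAAT boxes in genes of mitosis, and E2F sites (searched as TTTCCCGC, TTTGGCGC, TTTCGCGC or TTTGCCGC) in genes of replication. Both strands of the 250 bases before the RefSeq start of transcription (build GRCm38.p6) were searched, for 51 of the 61 genes that the RefSeq table held. A CHR match lay in 14 of them (27.5%) and in 17.4% of all 27025 promoters of that length, or 11.8% of the 8550 of genes tested. CCAAT lay in 36 (70.6%), against 34.5% of all promoters and 36% of those of genes tested. An E2F match lay in 7 (13.7%), against 1.91% of all and 3.46% of those of genes tested. Both a CHR and a CCAAT match lay in 13 (25.5%), against 6.21% of all and 4.58% of those of genes tested. A match is only a run of letters in this window and shows no binding. Shown are, among genes with 1 start in the table, the 3 with the largest falls that have both a CHR and a CCAAT match, then the next 2 with an E2F match, because the genes moved together. They run 5′ to 3′ on the gene's strand and end at the base before the start, with CHR, CCAAT and E2F matches in capitals.
Mki67, chr7:135716380-135716629, minus strand: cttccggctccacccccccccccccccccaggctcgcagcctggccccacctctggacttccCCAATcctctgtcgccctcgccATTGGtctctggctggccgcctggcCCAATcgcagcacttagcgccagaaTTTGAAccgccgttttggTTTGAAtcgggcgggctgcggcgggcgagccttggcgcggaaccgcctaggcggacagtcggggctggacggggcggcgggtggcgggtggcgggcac
Top2a, chr11:99024190-99024439, minus strand: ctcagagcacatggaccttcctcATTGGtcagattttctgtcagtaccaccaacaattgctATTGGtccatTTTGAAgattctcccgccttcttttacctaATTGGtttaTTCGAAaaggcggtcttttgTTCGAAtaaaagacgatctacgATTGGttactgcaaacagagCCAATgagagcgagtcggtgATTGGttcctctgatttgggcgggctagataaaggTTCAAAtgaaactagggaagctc
Kif11, chr19:37376132-37376381, plus strand: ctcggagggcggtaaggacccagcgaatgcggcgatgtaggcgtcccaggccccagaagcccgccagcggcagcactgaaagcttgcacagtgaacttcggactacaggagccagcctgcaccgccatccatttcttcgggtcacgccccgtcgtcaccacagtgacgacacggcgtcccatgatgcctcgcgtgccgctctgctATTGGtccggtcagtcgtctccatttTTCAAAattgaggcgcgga
Cdk1, chr10:69352913-69353162, minus strand: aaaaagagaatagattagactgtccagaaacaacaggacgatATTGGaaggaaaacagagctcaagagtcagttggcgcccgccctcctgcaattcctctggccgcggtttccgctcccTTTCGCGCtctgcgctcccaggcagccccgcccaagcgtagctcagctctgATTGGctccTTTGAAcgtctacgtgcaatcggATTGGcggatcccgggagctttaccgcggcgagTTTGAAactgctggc
Mcm5, chr8:75109259-75109508, plus strand: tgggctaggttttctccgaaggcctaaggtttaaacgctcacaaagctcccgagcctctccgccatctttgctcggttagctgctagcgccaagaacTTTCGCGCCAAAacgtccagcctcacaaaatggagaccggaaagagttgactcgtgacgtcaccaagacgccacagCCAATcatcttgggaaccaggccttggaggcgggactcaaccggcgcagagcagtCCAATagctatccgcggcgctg
Top2a carried 6 CCAAT and 4 CHR matches and Mki67 carried 3 and 2. Kif11, a motor of the mitotic spindle, carried 1 of each, and it averaged 1.33 RPKM at day 21 and 12.7 RPKM at day 3. Cdk1, the kinase that drives entry into mitosis, had all 3 kinds, and averaged 1.2 RPKM at day 21 and 11.5 RPKM at day 3. In Mcm5 the 2 E2F matches overlap each other, and no CHR match lay in the window.

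Comp, a thrombospondin of cartilage and tendon that binds collagen, had the largest rise of all genes, with 592, 689, 595 and 462 RPKM in the day 21 scars, against 2.16, 1.99, 2.28 and 1.45 RPKM in the day 3 scars (change 7.62, SE 0.18, adjusted p 1.38e-16). Next came Angptl7, a secreted angiopoietin-like protein, with 265, 356, 165 and 108 RPKM in the day 21 scars, against 1.5, 0.332, 1.91 and 0.305 RPKM in the day 3 scars (6.76, SE 0.43). Both were near their floor in each acute infarct and among the well expressed genes of each mature scar. Of 17 tested genes in the list of late scar fibroblasts, cartilage and bone, 14 rose and 1 fell, with a median of 2.65. The fall was Prg4, the lubricin of joint surfaces, at -0.67. Outside this list, Cytl1, a small secreted cytokine-like protein, had 28.2, 46.6, 38.7 and 33.8 RPKM in the day 21 scars, against 0.0815, 0.0339, 0.0358 and 0.166 RPKM in the day 3 scars. Chad and Cilp2, both cartilage matrix genes, averaged 5.59 and 7.41 RPKM at day 21 and 0.00562 and 0.039 RPKM at day 3.

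Small leucine-rich proteoglycans, which coat collagen fibrils and limit their width, rose in 10 of 11 cases, with a median change of 2.65. Fmod, which guides fibril growth and cross-linking, had 113, 115, 92.6 and 67.2 RPKM in the day 21 scars, against 1.07, 0.822, 0.445 and 0.638 RPKM in the day 3 scars (5.79, SE 0.2). Prelp, which links collagen to basement membranes, averaged 155 ± 30.9 RPKM at day 21 and 3.48 ± 0.403 RPKM at day 3 (5.11). Abundant members rose too, but by less. Dcn, the best known of the family, had 985.6, 1376, 810 and 765 RPKM in the day 21 scars, against 173, 139, 153 and 143 RPKM in the day 3 scars (2.65). The exception was Tsku, at -0.64. Among thrombospondins and other matricellular proteins, which sit in the matrix and signal to cells, 15 of 23 rose and 4 fell. The falls included the 2 early wound proteins Spp1 and Tnc. Tnc, an anti-adhesive protein of fresh wounds, had 12.2, 14.1, 11.7 and 9.54 RPKM in the day 21 scars, against 155, 182, 121 and 221 RPKM in the day 3 scars (-3.7, SE 0.22). Thbs1 rose only by 0.75 (SE 0.3, adjusted p 0.0327), a call lost without mouse A5, A7 or A8 of day 3 or mouse A3, A4 or A10 of day 21. Within each library, the log2 ratio of Comp to Thbs1 was 1.39 ± 0.0572 at day 21 and -6.07 ± 0.131 at day 3 (SD, n = 4 each; exact permutation test, two-sided, p = 0.0286, adjusted over 5 ratios 0.0357). That p is the smallest that 70 splits of 8 libraries allow.

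**Figure D3:**
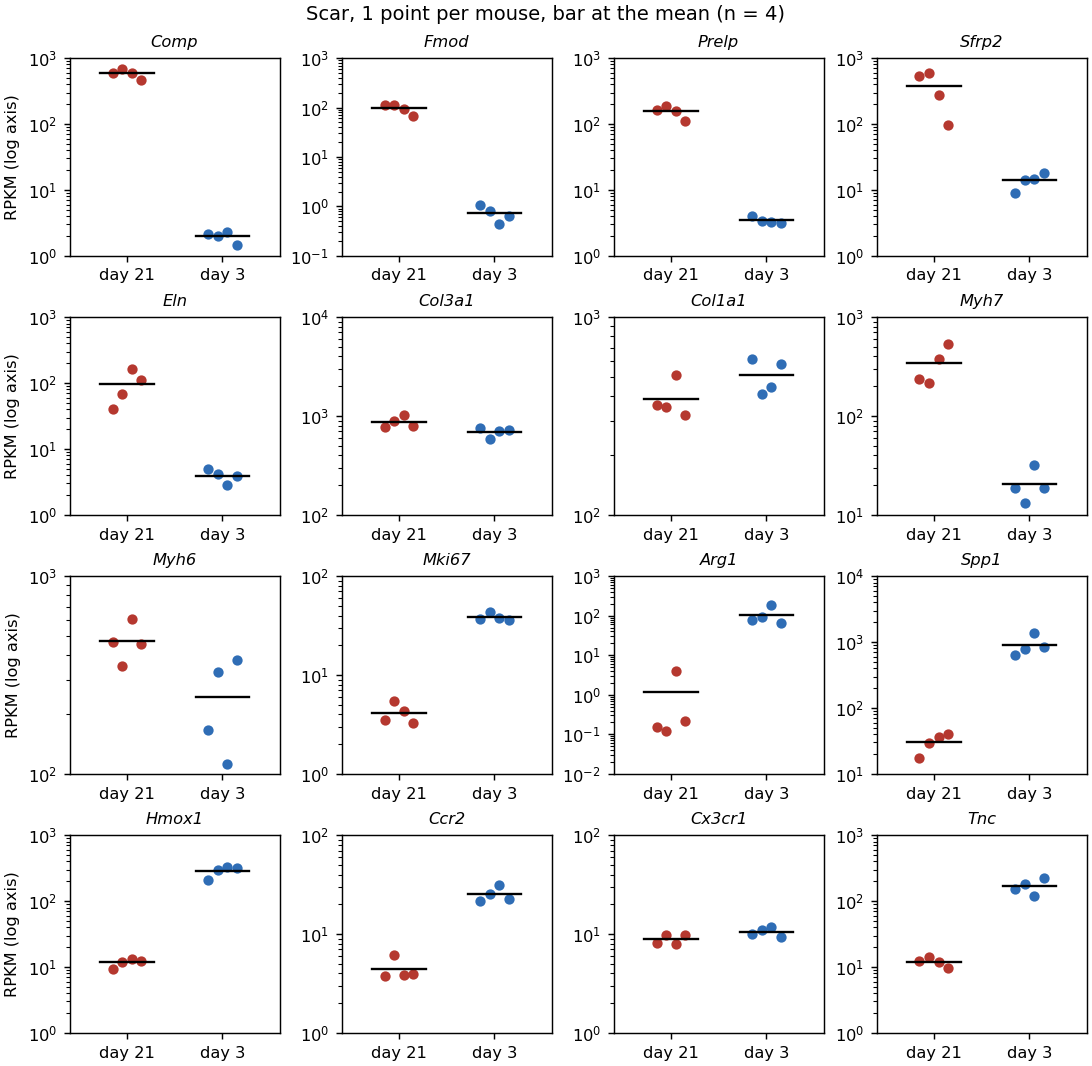
RPKM of 16 genes in each scar library (log axes, which differ between panels), with 1 point per mouse and a bar at the mean of 4; red is day 21 and blue day 3. Comp, Fmod, Prelp, Sfrp2, Eln and Myh7 are higher in every day 21 scar, Mki67, Arg1, Spp1, Hmox1, Ccr2 and Tnc are lower, and Col1a1, Cx3cr1 and Myh6 overlap.

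Elastic fibre genes rose in 10 of 17 cases and fell in 4. Eln, the elastin itself, had 40.6, 67.2, 164 and 113 RPKM in the day 21 scars, against 4.96, 4.11, 2.84 and 3.84 RPKM in the day 3 scars (4.13, SE 0.33). The mature scars ranged widely, with mice A10 and A11 highest, and the lowest was above the highest acute infarct. Mice A3 and A4 also parted from A10 and A11 in other genes, though not in Comp, for example. Adamtsl2 had 41.5, 49, 91.7 and 89 RPKM in the day 21 scars, and Hbb-bs 36.9, 35.8, 8.16 and 9.89 RPKM. In the remote pieces of these mice Col1a1 had 9.64, 8.98, 33.8 and 31.7 RPKM. What sets these pairs of mice apart was not tested. Fbln1 and Fbln5, fibulins that help elastin assemble, averaged 208 and 58.6 RPKM at day 21 and 8.72 and 3.76 RPKM at day 3. Their relative Fbln2 went the other way, with 73.5 ± 3.38 RPKM at day 21 and 121 ± 16.6 RPKM at day 3 (-0.7). Emilin2, an elastic fibre glycoprotein, fell by 2.2.

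Of the fibrillar collagens, the bulk of any scar, 3 of 10 rose, 2 fell and 5 did not pass, with a median of 0.21. Without mouse A11 of day 21 there were 5 rises, and without mouse A10 of day 21 there were 4 falls. The largest rises were in chains known from cartilage: Col2a1 averaged 2.92 ± 1.43 RPKM at day 21 and 0.0895 ± 0.0242 RPKM at day 3 (1.77), and Col11a1 averaged 5.79 ± 2.07 RPKM at day 21 and 1.93 ± 0.551 RPKM at day 3 (1.18). Col1a1, the main chain of type I collagen, had 360, 352, 509 and 318 RPKM in the day 21 scars, against 615, 409.8, 445 and 578 RPKM in the day 3 scars (-0.41, SE 0.21, adjusted p 0.092). Col3a1, the type III chain, had 777, 891, 1029 and 784 RPKM in the day 21 scars, against 751, 585, 704 and 718 RPKM in the day 3 scars (0.33, SE 0.15, adjusted p 0.0523). The mice of the 2 days overlapped for Col1a1 and lay side by side for Col3a1, and neither change passed. Neither result held under every alternative. Col1a1 passed without mouse A10 of day 21 (-0.55, adjusted p 0.033), and Col3a1 passed without mouse A4 of day 3, A3 of day 21 or A11 of day 21. Col3a1 also passed with a mean of at least 5 RPKM required (adjusted p 0.0497), without trend and robust moderation (0.0235) and under quantile normalization (change 0.55, 0.0197). The log2 ratio of Col3a1 to Col1a1 within a library was 1.19 ± 0.154 at day 21 and 0.445 ± 0.177 at day 3 (SD, n = 4 each), without overlap (exact permutation p = 0.0286, adjusted 0.0357). In type V collagen, a minor chain set that starts fibrils, Col5a2 rose by 0.4 (adjusted p 0.00576), Col5a1 was at -0.33 (adjusted p 0.052) and Col5a3 fell by 1.22 (adjusted p 0.000182). Col5a1 passed under 6 alternatives, with an adjusted p of 0.0301 to 0.0476: no trend and robust moderation, quantile normalization, scaling to recovered reads, only days 3 and 21, without mouse A5 of day 3 and without mouse A10 of day 21. Col5a3 had 5.48, 6, 15 and 12.6 RPKM in the day 21 scars, against 23.4, 21.3, 22.2 and 22.1 RPKM in the day 3 scars. For Col5a1 over Col1a1 the log2 ratio was -2.03 ± 0.174 at day 21 and -2.1 ± 0.126 at day 3, a difference of 0.08 (exact permutation p = 0.486). Between the days Col1a1 and Col3a1 were higher: Col1a1 averaged 1019 RPKM at day 7, and Col3a1 1708 RPKM.

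Collagens that do not form fibrils on their own rose in 13 of 20 cases and fell in 3, with a median of 1.1. The largest rise was Col8a2, a short network collagen of basement layers, with 61 ± 15 RPKM at day 21 and 1.31 ± 0.768 RPKM at day 3 (4.77). Col14a1, which lies on fibril surfaces, averaged 111 RPKM at day 21 and 27.5 RPKM at day 3. Type IV collagen, the sheet of basement membranes, split by chain. Col4a3 and Col4a4, chains of mature basement membranes such as that of the kidney, averaged 4.2 and 4.9 RPKM at day 21 and 0.234 and 0.373 RPKM at day 3 (2.04 and 2.07). Col4a1, the common chain, fell by 0.33 (adjusted p 0.039), a call lost without mouse A5, A7 or A8 of day 3 or mouse A3 or A4 of day 21. Enzymes and chaperones that fold and cross-link collagen fell in 15 of 29 cases and rose in 11. Serpinh1, the collagen chaperone HSP47, had 218, 198, 290 and 267 RPKM in the day 21 scars, against 457, 409, 463 and 470 RPKM in the day 3 scars (-0.9). The lysyl oxidases, which cross-link collagen and elastin, split: Loxl1 rose by 0.98 and Loxl2 fell by 1.08, while Lox, at -0.3, did not pass.

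Matrix proteases and their inhibitors split: 10 of 29 rose and 17 fell, 13 of these at -1 or below, with a median of -0.9. Mmp9, a gelatinase made by neutrophils and macrophages, had 0.0736, 0.0919, 0.145 and 0.0709 RPKM in the day 21 scars, against 6.8, 8.56, 14.1 and 4.63 RPKM in the day 3 scars (-3.03). The other gelatinase, Mmp2, which fibroblasts make, averaged 200 ± 41.5 RPKM at day 21 and 20.1 ± 3.95 RPKM at day 3 (3.25). The TIMP inhibitors of these proteases also parted. Timp1, induced by inflammation, had 39.7, 41.8, 63.5 and 72.2 RPKM in the day 21 scars, against 442, 283, 421 and 316 RPKM in the day 3 scars (-2.75). Timp3, which is bound to the matrix, had 182, 191, 171 and 162 RPKM in the day 21 scars, against 21.3, 15.2, 15.8 and 16.9 RPKM in the day 3 scars (3.29). Adamts4, an aggrecan-cutting protease, fell by 3.27, and Adamtsl2, a protein of its family without the protease part, rose by 4.83. No mouse crossed to the other group's range in any of these 6 genes, as was so for 60.5% of all genes tested. Adamtsl2 was named by a rule that requires this.

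Among fibroblast genes, those of resting fibroblasts rose in 19 of 25 cases and fell in 3, with a median of 1.5. Only 1 fell without mouse A3, A4 or A10 of day 21, or under quantile normalization. Their summed level was 2029 to 2525 RPKM in the day 21 scars and 331 to 377 RPKM in the day 3 scars. Gsn, the actin-severing protein gelsolin, had 993, 1437, 973 and 1060 RPKM in the day 21 scars, against 36.6, 36.8, 47.4 and 36.9 RPKM in the day 3 scars (4.78). Pi16, a marker of unactivated adventitial fibroblasts, averaged 58.8 ± 11 RPKM at day 21 and 2.57 ± 0.34 RPKM at day 3 (4.05). Activated fibroblast genes did not move as a block: 11 of 23 rose and 4 fell, and their summed level was 1727 to 2066 RPKM at day 21 and 1778 to 2024 RPKM at day 3. Postn, periostin, a standard marker of activated fibroblasts, had 285, 256, 158 and 180 RPKM in the day 21 scars, against 135, 153, 98.9 and 193 RPKM in the day 3 scars. The groups overlapped (0.6, SE 0.2, adjusted p 0.0125), and the call was lost without mouse A7 of day 3 or mouse A3 of day 21. Cilp, a cartilage protein that binds TGF-beta, averaged 203 ± 34.9 RPKM at day 21 and 12.9 ± 3.47 RPKM at day 3 (3.89).

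Secreted signals that act on fibroblasts changed as well. All 9 tested secreted modulators of Wnt signalling rose, with a median of 1.48. Sfrp2, a decoy for Wnt proteins, had 532, 603, 276 and 98 RPKM in the day 21 scars, against 8.96, 13.9, 14.4 and 18.3 RPKM in the day 3 scars (4.4, SE 0.41). The mature scars ranged widely, with mouse A11 lowest, and each lay above every infarct. Dkk3, a member of the Dickkopf family, averaged 92 ± 9.84 RPKM at day 21 and 4.76 ± 1.2 RPKM at day 3. In the TGF-beta pathway 13 of 23 genes rose and 6 fell. The ligands parted: Tgfb1 averaged 5.28 ± 0.376 RPKM at day 21 and 14 ± 1.33 RPKM at day 3 (-1.26), while Tgfb3 averaged 89.6 ± 10.7 RPKM at day 21 and 23.2 ± 3.31 RPKM at day 3 (1.91). Igfbp6, which holds insulin-like growth factor II, rose by 2.91, and H19, a noncoding RNA transcribed beside that growth factor's gene, fell by 2.51.

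Genes of white cells that enter the infarct were low in the mature scar. Of 20 tested genes of recruited monocytes and early macrophages, 17 fell and 1 rose, with a median of -2.08. The rise was Thbs1, whose call depended on single mice, as given above. Arg1, the arginase of wound macrophages, had 0.154, 0.12, 4.09 and 0.218 RPKM in the day 21 scars, against 78.9, 95.1, 184 and 67 RPKM in the day 3 scars (-5.88, SE 0.52). Mouse A10 stood out among the mature scars and was still far below the infarcts. Spp1, osteopontin, had 17.6, 29.4, 35.8 and 40.6 RPKM in the day 21 scars, against 644, 795, 1356 and 831 RPKM in the day 3 scars (-4.84). The monocyte attractants Ccl2 and Ccl7 averaged 1.95 and 1.7 RPKM at day 21 and 56.1 and 49.8 RPKM at day 3, and of 18 chemokines and cytokines 12 fell and 3 rose. Chil3, a lectin of recruited myeloid cells, averaged 0.0611 RPKM at day 21 and 12.2 RPKM at day 3. Neutrophil genes fell in 8 of 9 cases, with a median of -2.1. S100a9, the calprotectin subunit that fills neutrophils, had 1.12, 0.17, 0.306 and 0.206 RPKM in the day 21 scars, against 36, 9.46, 29.3 and 10.6 RPKM in the day 3 scars. The neutrophil list's exception, G0s2, is also made in fat and muscle cells and averaged 24.9 RPKM at day 21 and 4.64 RPKM at day 3.

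General macrophage genes differed among themselves. Adgre1, the pan-macrophage surface protein F4/80, had 26.4, 35.9, 28.3 and 26.8 RPKM in the day 21 scars, against 30.7, 31.7, 34.8 and 32.2 RPKM in the day 3 scars (-0.14, adjusted p 0.258). Csf1r, the receptor that keeps macrophages alive, averaged 37.6 RPKM at day 21 and 35.5 RPKM at day 3 (0.07, adjusted p 0.607). Cd68, a lysosomal protein of macrophages that rises as they take up debris, had 20.6, 28.7, 22.4 and 16.7 RPKM in the day 21 scars, against 59.7, 88.1, 97.7 and 75.9 RPKM in the day 3 scars (-1.82). Of 19 resident-type macrophage genes 4 rose, 4 fell and 11 did not pass. Ccr2, the receptor by which monocytes enter tissue, had 3.72, 6.1, 3.89 and 3.97 RPKM in the day 21 scars, against 21.8, 25.4, 31.1 and 22.4 RPKM in the day 3 scars (-2.28). Cx3cr1, a receptor of settled macrophages, averaged 8.9 RPKM at day 21 and 10.6 RPKM at day 3 (-0.23, adjusted p 0.172), and passed with only days 3 and 21 in the fit (adjusted p 0.0416). The log2 ratio of Ccr2 to Cx3cr1 was thus -1.03 ± 0.263 at day 21 and 1.24 ± 0.122 at day 3 (SD, n = 4 each), below 0 in 4 of 4 mature scars and above 0 in 4 of 4 infarcts (exact permutation p = 0.0286, adjusted 0.0357). Genes of lipid-associated macrophages, which take up debris, fell in 13 of 18 cases and rose in 2. Fabp5, a fatty acid carrier of these cells, fell by 2.61. Genes of antigen presentation by MHC class II rose in 4 of 11 cases and fell in 3, with a median of 0.08. The shares over all genes tested were 32.5% and 34.1%. In the remote region 5 of the 11 rose and 0 fell, with a median of 0.45, while 5.72% of all genes rose there. Among the rises in the scar H2-Aa, a class II chain, had 89.4, 138, 74.5 and 80.9 RPKM in the day 21 scars, against 32.8, 46.4, 56.6 and 38.2 RPKM in the day 3 scars (1.11).

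Of the complement genes 9 of 16 rose and 3 fell, with a median of 1.18. Among the soluble components C3, the central component, had 319, 324, 365 and 198 RPKM in the day 21 scars, against 45.8, 25.3, 46.5 and 25.7 RPKM in the day 3 scars (3.06). C4b, of the classical pathway, rose by 3.16, while Cfp, properdin, fell by 1.75. C1qa, made by macrophages, did not pass, with 147 ± 23.9 RPKM at day 21 and 138 ± 21.2 RPKM at day 3. The receptors C3ar1 and C5ar1, carried by myeloid cells, fell by 1.76 and by 1.43.

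Hmox1, which breaks down haem, had 9.26, 12.1, 13.2 and 12.4 RPKM in the day 21 scars, against 210, 296, 334 and 322 RPKM in the day 3 scars (-4.51), and 11 of 16 genes of haem and iron handling fell while 3 rose. Haemoglobin itself was lower too: Hbb-bs had 36.9, 35.8, 8.16 and 9.89 RPKM in the day 21 scars, against 40, 71.3, 73.8 and 48.8 RPKM in the day 3 scars. Of 7 red cell genes 5 fell, with a summed level of 20.5 to 71.6 RPKM in the day 21 scars and 77.6 to 142 RPKM in the day 3 scars, and their part in the change of the haem genes was not tested. Of 40 cytosolic ribosomal protein genes 36 fell and 0 rose, by a median of -0.43, and only Rps2, at -1.1, reached -1. Genes of the unfolded protein response fell in 14 of 20 cases and rose in 3. Of 24 glycolysis genes 13 fell and 4 rose. Among the falls were Pkm, a pyruvate kinase gene, with 155 ± 22.5 RPKM at day 21 and 375 ± 38.8 RPKM at day 3 (-1.28), and the glucose carrier Slc2a1 (-1.44). The largest rises were those of the muscle and heart forms Pfkm (1.26) and Ldhb (1.06).

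Heart muscle genes were partly higher in the mature scar. Of 27 sarcomere genes 14 rose and 5 fell, with a summed level of 5657 to 9641 RPKM in the day 21 scars and 3757 to 6163 RPKM in the day 3 scars. Tnni3, cardiac troponin I, had 198, 162, 220 and 234 RPKM in the day 21 scars, against 73.7, 120.4, 56.8 and 132 RPKM in the day 3 scars (1.15), while the remote pieces averaged 2039 RPKM at day 21 and 2217 RPKM at day 3. Myh7, the slow myosin that adult mouse ventricles re-express under load, rose most: it had 236, 217, 380 and 538 RPKM in the day 21 scars, against 18.7, 13.2, 31.6 and 18.8 RPKM in the day 3 scars (3.96, SE 0.38). Myh6, the usual adult form, had 463, 351, 604 and 454 RPKM in the day 21 scars, against 166.5, 327, 113 and 375 RPKM in the day 3 scars. Its groups overlapped (1.06, SE 0.37, adjusted p 0.0153), and without mouse A7 of day 3 the change was 0.75 with an adjusted p of 0.074. The log2 ratio of Myh7 to Myh6 was -0.52 ± 0.531 at day 21 and -3.48 ± 1.27 at day 3 (SD, n = 4 each; exact permutation p = 0.0286, adjusted 0.0357). Without any 1 of the 4 day 21 mice that exact p was 0.0571. Of 15 heart stress genes, Myh7 among them, 4 rose and 10 fell. Among the rises, Nppa, the atrial natriuretic peptide, had 3951, 3035, 4103 and 4961 RPKM in the day 21 scars, against 1219, 1045, 1026 and 1033 RPKM in the day 3 scars (1.87). Among the falls, Acta1, skeletal actin, had 11.2, 4.49, 12.1 and 22.2 RPKM in the day 21 scars, against 56.8, 72.9, 41.5 and 115 RPKM in the day 3 scars (-2.51, SE 0.58). Sprr1a, a small protein induced in stressed heart muscle, fell by 3.57. Oxidative phosphorylation genes rose in 15 of 41 cases and fell in 0, with a median of 0.29. That count rested on single mice: it was 6 without mouse A11 of day 21 and 26 without mouse A4 of day 21, and 23 under quantile normalization. The summed sarcomere level was mostly higher at day 21, as given above, and the part of surviving muscle in these changes was not tested.

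Genes of endothelium and of the vessel wall differed in direction. Of 26 endothelial genes 18 fell and 4 rose, with a median of -0.94. Cdh5, the junction cadherin of endothelium, had 25.2, 29.2, 27.5 and 23.7 RPKM in the day 21 scars, against 81.5, 89.6, 85.7 and 91.3 RPKM in the day 3 scars (-1.69). Pecam1, another junction protein, averaged 22.4 ± 2.71 RPKM at day 21 and 49.4 ± 4.9 RPKM at day 3 (-1.11). Apln, made by sprouting vessel tips, fell by 2.88. Pericyte and smooth muscle genes rose in 11 of 21 cases and fell in 2, while their summed level was 817.6 to 957.5 RPKM in the day 21 scars and 907.8 to 1145 RPKM in the day 3 scars. Myh11, the myosin of mature smooth muscle, had 37.8, 37.7, 32 and 25.2 RPKM in the day 21 scars, against 7.06, 8.29, 5.68 and 6.89 RPKM in the day 3 scars (2.09). Rgs5, a pericyte marker, averaged 80.5 ± 4.67 RPKM at day 21 and 42.3 ± 8.79 RPKM at day 3 (0.93).

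The days between and after show where day 21 lies on each course, with levels set side by side without a test. Labels of the day 42 mice begin with B and those of the other days with A, and the part of this difference was not tested. Over days 3, 7, 14, 21 and 42 in that order, Comp averaged 1.97, 117, 385, 584 and 529 RPKM. Eln had its highest mean at day 7, with 3.94, 165, 156, 96.2 and 38.6 RPKM on the 5 days. Mki67 averaged 38.5, 13.3, 5.22, 4.14 and 5.77 RPKM, with most of the decline by day 14. Myh7 averaged 20.6, 25.8, 352, 343 and 489 RPKM, a step between days 7 and 14. Gpnmb, a lipid-associated macrophage gene, averaged 22.6, 55.6, 11.6, 6.97 and 5.64 RPKM, highest at day 7.

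**Figure D4:**
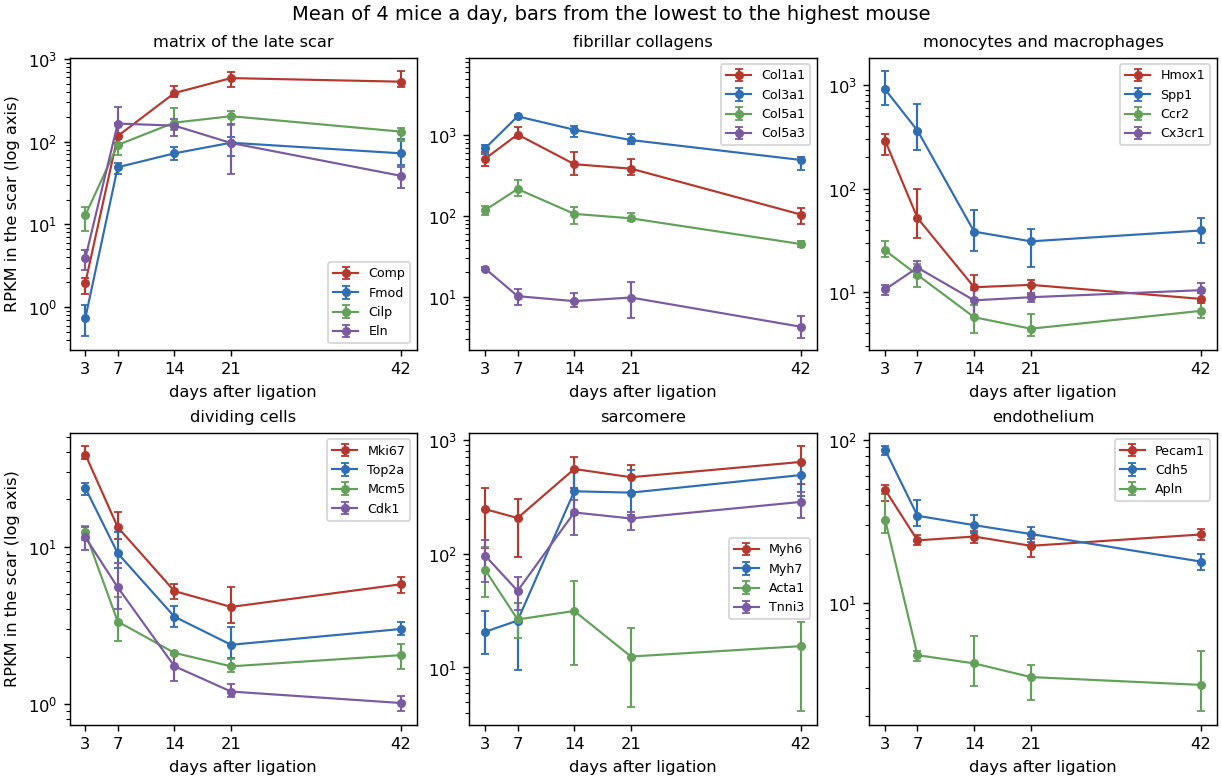
Mean RPKM in the scar (log axis) on days 3, 7, 14, 21 and 42 after ligation for genes of 6 kinds, 4 mice a day, with bars from the lowest to the highest mouse. Comp climbs to 584 RPKM at day 21, the fibrillar collagens Col1a1 and Col3a1 peak at day 7, and Mki67 and Cdh5 decline from day 3.

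The remote region of the same hearts changed far less between the days. There, 651 genes (5.72%) were higher and 658 (5.78%) lower at day 21 than at day 3, 11.5% in all, and 44 (0.386%) and 20 (0.176%) with a log2 change of at least 1. The scar change minus the remote change, tested with each mouse as its own block, was called for 60% of genes, more positive for 3344 (29.4%) and more negative for 3490 (30.6%). With a difference of at least 1 these were 707 (6.21%) and 729 (6.4%). Of 1309 genes called remotely, 901 were also called in the scar, to be read against 66.6% of all tested genes called there. Of these 901, 317 were higher in both regions and 202 lower in both. A further 236 were higher in the scar and lower remotely, and 146 were lower in the scar and higher remotely. Acta1 was the widest of the last kind, at -2.51 in the scar and 1.83 remotely, a difference of -4.34 (adjusted p 3.33e-05). Setbp1, a nuclear protein, was the reverse, at 2.27 in the scar and -0.44 remotely. Among the genes of the mature scar Comp rose in both, by 7.62 in the scar and by 2.65 remotely (difference 4.97, adjusted p 4.03e-07), with 14.7 RPKM in the remote pieces at day 21 and 0.93 RPKM at day 3. For Nppa the difference of 0.46 did not pass (adjusted p 0.353).

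**Figure D5:**
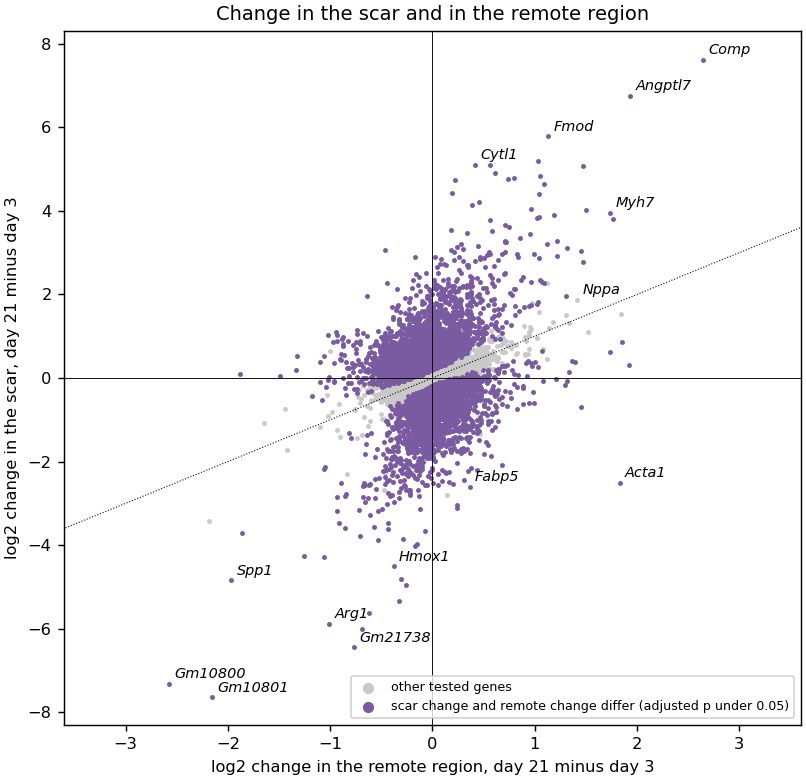
Each point is a tested gene, placed by its log2 change from day 21 minus day 3 in the remote region (x axis) and in the scar (y axis); purple genes differ between the regions at an adjusted p under 0.05. The axes differ in scale, the dotted line marks equal change, Comp lies at the top (7.62) and Acta1 alone at the lower right.

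Several of the largest falls belong to gene models that share sequence. Gm10801 (-7.64), Gm10800 (-7.32), Gm21738 (-6.45), Gm10722, Gm10720, Gm10717, Gm10715 and Gm17535 lie on chromosomes 2, 9 and 14, and 43.4% to 94.6% of the 25-base words in each one's transcripts occur in another's. Reads cannot be assigned among them with certainty, so they count as 1 signal. Gm10800 had 100.9, 140.4, 57.2 and 40.5 RPKM in the day 21 scars, against 15300, 16250, 23870 and 3776 RPKM in the day 3 scars. The infarcts ranged widely among themselves, with mouse A8 lowest for all 8 models, and each remained above every mature scar. The 10 short or repeat-like models, these 2 of chromosome 2 among them, took 6.58% to 17.8% of all RPKM in the day 21 scars and 24.9% to 33.5% in the day 3 scars.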

How the data were processed

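Libraries were made from total RNA (RNeasy columns, TruSeq kit), per the labels' protocols. The authors deposited 1 table of RPKM values; per the submitters' processing notes, the tools were STAR and edgeR and the genome mm10, while annotation and counting are not given in the sources consulted. Genes with at least 1 RPKM in at least 4 of the 40 libraries were tested on log2(RPKM + 1) with limma 3.58.1 (R 4.3.3, statmod 1.5.0; trend and robust moderation, Benjamini-Hochberg adjustment). The scar fit used the 20 scar libraries of 5 days, which share 1 estimate of the spread (15 residual degrees of freedom). The scar-against-remote difference used all 40 with mouse as a block, since both regions came from the same heart, per the series' design text. RPKM are not counts; whole reads were recovered from their steps for 99.97% of genes (within 0.01 of a whole read), a median of 577 reads per gene and library, and served to state depth and as 1 alternative scaling. The 5 ratios were compared by two-sided exact permutation tests. The fits were also run on simulated data with few changed genes and no effect shared by the 2 pieces of a mouse. The real data differ in both, so that run is not used as support here. The named genes were the 12 largest rises and 12 largest falls without overlap, up to 2 each way per list, the ratio genes and type I, III and V collagens, the 5 most different from the remote region each way, and the 5 most abundant; other genes were chosen after their values were seen. The comparison, its members and the 43 gene lists were chosen with earlier results of these data known. Promoter sequences are from RefSeq, build GRCm38.p6. Tnni1 was not analysed here. Alternatives tried were other pseudocounts, filters, moderation and scalings, only days 3 and 21, Xist detection as a covariate, a replicate left out, and other treatments of the mouse block.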

Additional observations from a re-analysis of the deposited data

Results flagged for a closer look

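The gap from 1 mouse to the rest of its 4 was past Dixon's limit for 16 genes named in the text. Chance alone would do this for about 1 in 20 groups. Many groups were looked at and the 16 were not set against their number, so they are not shown to exceed chance. Among the day 21 scars the mouse that stood apart had 4.09 RPKM for Arg1, 13 RPKM for Ccnd1, 6.1 RPKM for Ccr2, 107.7 RPKM for Col5a1, 1.59 RPKM for Gm10722, 127.7 RPKM for Loxl1 and 1.12 RPKM for S100a9. Among the day 3 scars it had 40.8 RPKM for Angptl4, 46.2 RPKM for Apln, 79.96 RPKM for Ccl2, 0.0225 RPKM for Chad, 2.46 RPKM for Col8a2, 47.4 RPKM for Gsn, 1219 RPKM for Nppa, 3.93 RPKM for Nr1d1 and 42.1 RPKM for Pecam1. The Chad value lies near 0.

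Many named genes changed differently in the scar and the remote region, by the interaction test in limma. Given here are the 5 most different each way, which were chosen for that difference, and the collagens of the naming rule that passed. The difference was 4.97 for Comp, 4.82 for Angptl7, 4.7 for Cytl1, 4.66 for Fmod and 4.54 for Prelp. It was -5.68 for Gm21738, -5.49 for Gm10801, -5.31 for Gm10722, -5.01 for Gm10717 and -5.001 for Gm10720, which share sequence. Of the type I, III and V collagens named by rule it was 0.74 for Col3a1 (adjusted p 0.0387), although its change in the scar alone did not pass, and -0.83 for Col5a3 (adjusted p 0.000302).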

How the results depend on the processing

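No paired analysis was possible because the day 21 and day 3 scars came from different animals that share only the number 4. With a mean of at least 5 RPKM required, which tests fewer genes, 2009 genes were higher and 2558 lower in the scar, and the scar-minus-remote difference was positive for 1793 and negative for 2242. A log2 change of at least 1 left 661 higher and 693 lower genes, and 707 and 729 for the difference. Without 1 mouse, 3472 to 3666 genes were higher and 3630 to 3821 lower, and 3085 to 3265 and 3196 to 3397 for the difference. The difference with no replicate block gave 3154 positive and 3282 negative genes, and with the replicate block as a random effect 3397 and 3553. Scaled to recovered reads, it was positive for 3119 genes and negative for 3701. The Myh7 to Myh6 difference was 2.58 to 3.51 without 1 mouse, its exact p reaching 0.0571 without any day 21 mouse. Directions reversed under quantile normalization for Rmrp (0.65), Rpph1 (0.99), mt-Co1 (0.23) and mt-Rnr2 (0.37); and without 1 mouse for Rpph1 (-0.26 to 0.11), C1qa (-0.013 to 0.17), Pdk4 (-0.32 to 0.044) and Csf1r (-0.012 to 0.15). The causes were not tested. Postn lost its call under quantile normalization (0.57, adjusted p 0.0751). Depth of 15367455 reads or more per scar library of days 3 and 21 limits mainly genes near 0. The lowest scar library of the fit, from day 7, had 11268252 reads.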

Other observations

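Clock genes, a list made after values were seen, rose in 12 of 18 cases in the scar and fell in 1, with a median change of 1.63. In the remote region 2 rose and 2 fell, with a median of 0.24. Dbp, a transcription factor driven by the clock, had 48.9, 52.7, 31.9 and 22.9 RPKM in the day 21 scars, against 1.84, 1.77, 1.22 and 1.89 RPKM in the day 3 scars (3.84, adjusted p 2.22e-05 by limma). Nr1d1, a repressor of the clock loop, had 44.7, 45.4, 43.8 and 39.4 RPKM in the day 21 scars, against 5.18, 5.42, 3.93 and 5.41 RPKM in the day 3 scars (2.9). Arntl, the activator that peaks opposite to them, was at -0.63 and did not pass (adjusted p 0.218; 0.0107 with only days 3 and 21). The hour at which hearts were taken is not given in the sources used here, and its part was not tested.

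Genes induced by glucocorticoids, a list also made after values were seen, rose in 8 of 14 cases in the scar and fell in 1, with a median of 1.17, and in the remote region 7 rose and 0 fell, with a median of 0.73. Tsc22d3, a standard glucocorticoid target, rose by 3.05, and Klf15, a transcription factor of muscle metabolism, by 2.71. Angptl4, a lipase inhibitor, had the list's largest change in size and fell by 3.16, with 2.63 ± 1.72 RPKM at day 21 and 29.2 ± 7.82 RPKM at day 3 (SD, n = 4 each; adjusted p 1.79e-08 by limma). The metallothioneins Mt1 and Mt2 were at -0.21 and -0.59 in the scar and did not pass, while both rose in the remote region, by 0.82 (adjusted p 0.00488) and 0.99 (adjusted p 0.0444). Pdk4, at -0.12, did not pass.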
